A study of Mus musculus with 4 samples.

Results

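Thy1+CD25+ cells that arose from mouse progenitors by forced expression of Tcf1, on stroma without an added Notch ligand, were compared with cells sorted for the same surface markers that arose under the Notch ligand DL4. The comparison uses 3 of the 4 arrays of the series: 2 arrays of Tcf1 cells against 1 array of control cells. It covers 19938 genes, each read through a single probe set, and the remaining array, of the input progenitors, is given beside the values.

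All cells came from the bone marrow of wild-type C57BL/6 mice and began as lymphoid-primed multipotent progenitors (LMPPs), sorted as lineage marker-negative, Sca+, kit+ and Flt3high. For Tcf1 cells, LMPPs received the Tcf1-VEX retrovirus during 48 hours in a stimulation medium with IL-3, IL-6, SCF and Flt3-ligand, were sorted for the VEX reporter and were then cultured on OP9, a stromal line from bone marrow. For control cells, LMPPs received the VEX vector alone, were likewise sorted for VEX and were grown on OP9-DL4, the same stroma made to carry the Notch ligand DL4. Both cultures had IL7 at 1 ng/ml and Flt3L at 5 ng/ml, moved to fresh stroma on day 6, and on day 10 were sorted for live (DAPI-) CD45.2+ cells with Thy1 and CD25 on the surface and without Mac1 or Gr1. The LMPP array held pooled LMPPs after 48 hours in the stimulation medium, with no virus stated. The 2 Tcf1 arrays are labelled as biological replicates, but nothing says whether they came from separate cultures or mice. The p-values therefore rest only on the spread between these 2 samples, that of the gene itself and that pooled over all genes. Vector and stroma differed together, so the effects of Tcf1 and of DL4 cannot be told apart.

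In the thymus, a Notch ligand on the stroma engages Notch1 on an incoming progenitor, the receptor is cleaved, and its intracellular part joins the DNA-binding protein Rbpj at target genes such as Hes1 and Dtx1. Tcf1, encoded by Tcf7, is induced early in this sequence and binds many T lineage genes, among them Gata3 and Bcl11b, which encode the next factors of T lineage specification. The CD3 chains, the pre-TCR and the Rag recombinase come on as cells commit, while genes of progenitors and of myeloid cells are silenced. Tcf7 itself is not analysed here, because no probe set named it alone, and the labels were not checked by it.

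Promoters of genes that moved together were read from RefSeq (GRCm38.p6) to show the sequence next to the genes on which the comparison turns. Shown are the 250 bases before the annotated start, 5′ to 3′ on the strand of the gene, for neighbours that were both lower in Tcf1 cells (Cd3g and Cd3d), for a recombinase gene (Rag1), for a Notch target (Dtx1) and for genes that were higher (Flt3, Hoxa9 and Cybb). Capitals mark matches, on either strand, to TGGGAA, the core bound by Rbpj, or to CTTTGAT or CTTTGAA, bound by Tcf1 and Lef1. No GAGGAAGT, bound by Spi1 (PU.1), lies in these windows.
Cd3g, chr9:44980432-44980681, minus strand: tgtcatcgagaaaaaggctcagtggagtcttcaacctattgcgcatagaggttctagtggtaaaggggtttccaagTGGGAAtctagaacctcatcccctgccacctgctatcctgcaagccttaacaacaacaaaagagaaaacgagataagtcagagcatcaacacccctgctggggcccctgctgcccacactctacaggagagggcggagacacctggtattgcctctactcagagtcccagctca
Cd3d, chr9:44981536-44981785, plus strand: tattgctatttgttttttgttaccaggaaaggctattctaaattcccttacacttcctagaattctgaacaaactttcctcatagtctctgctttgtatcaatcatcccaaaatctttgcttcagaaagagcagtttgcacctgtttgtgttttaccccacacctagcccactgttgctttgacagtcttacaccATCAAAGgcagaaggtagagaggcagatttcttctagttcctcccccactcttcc
Rag1, chr2:101649533-101649782, minus strand: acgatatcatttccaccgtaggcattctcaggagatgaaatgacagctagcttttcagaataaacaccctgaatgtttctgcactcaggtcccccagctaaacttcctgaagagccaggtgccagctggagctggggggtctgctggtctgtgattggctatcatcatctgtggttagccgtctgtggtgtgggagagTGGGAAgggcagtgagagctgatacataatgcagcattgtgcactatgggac
Dtx1, chr5:120711670-120711919, minus strand: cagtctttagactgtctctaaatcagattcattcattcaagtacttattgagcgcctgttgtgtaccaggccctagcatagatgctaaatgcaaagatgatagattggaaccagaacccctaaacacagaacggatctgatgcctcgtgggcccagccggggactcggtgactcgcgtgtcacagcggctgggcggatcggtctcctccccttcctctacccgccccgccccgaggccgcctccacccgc
Flt3, chr5:147400490-147400739, minus strand: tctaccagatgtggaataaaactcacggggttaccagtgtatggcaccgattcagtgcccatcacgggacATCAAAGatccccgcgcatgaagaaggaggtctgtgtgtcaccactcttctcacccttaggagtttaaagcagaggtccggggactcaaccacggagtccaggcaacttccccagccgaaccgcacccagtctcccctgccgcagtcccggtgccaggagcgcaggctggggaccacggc
Hoxa9, chr6:52227371-52227620, minus strand: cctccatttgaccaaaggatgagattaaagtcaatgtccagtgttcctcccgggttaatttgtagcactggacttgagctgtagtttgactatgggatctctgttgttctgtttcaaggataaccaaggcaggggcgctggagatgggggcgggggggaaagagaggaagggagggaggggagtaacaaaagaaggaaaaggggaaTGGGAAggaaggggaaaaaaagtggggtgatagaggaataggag
Cybb, chrX:9469325-9469574, minus strand: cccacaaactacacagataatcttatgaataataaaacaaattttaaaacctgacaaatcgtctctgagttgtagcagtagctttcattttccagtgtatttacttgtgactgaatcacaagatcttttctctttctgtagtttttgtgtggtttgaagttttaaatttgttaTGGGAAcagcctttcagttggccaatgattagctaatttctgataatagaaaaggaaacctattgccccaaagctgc
TGGGAA begins 174 bases before the start of Cd3g, 52 before that of Rag1, 44 before that of Hoxa9 and 77 before that of Cybb. The CTTTGAT of Cd3d lies on the opposite strand 55 bases before the start, and that of Flt3 180 bases before it. The Dtx1 window holds none of the motifs. Over windows of 300 bases (250 before and 50 after a start), TGGGAA was in 25.56% of all 32851 promoters, in 25.15% of the 493 promoters of genes lower in Tcf1 cells and in 25.07% of the 367 of genes higher. CTTTGAA was in 5.14%, 4.46% and 4.63% of these, and CTTTGAT in 3.73%, 2.64% and 2.18%. GAGGAAGT was in 3.20% of all promoters, in 2.64% for lower genes and in 7.08% for higher genes. Over the 19177 promoters of measured genes the shares were 24.03% for TGGGAA, 4.37% for CTTTGAA, 3.18% for CTTTGAT and 2.77% for GAGGAAGT. The motifs CTTTGAA and CTTTGAT differ only in the last letter, and the others do not overlap them. A match is a description of letters and not of binding.

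Values are log2 signals from Affymetrix arrays, so that a difference of 1 is 2-fold. Differences are the mean of both Tcf1 arrays minus the control array, with the standard error (SE) of a limma fit, and a gene is called lower or higher in Tcf1 cells where its Benjamini-Hochberg adjusted p over all 19938 genes is under 0.05. Array medians over these genes were 7.47 and 7.59 in the Tcf1 replicates, 7.49 in the control array and 7.49 in the LMPP array. Across genes the Tcf1 replicates differed with an SD of 0.24, and each from the control array with an SD of 0.47 and 0.44. In all, 496 genes (2.49% of those tested) were lower and 378 (1.90%) higher in Tcf1 cells, and for all 874 the Tcf1 arrays both read lower, or both higher, than the control. Because the spread in the test comes from the Tcf1 pair, a called gene could hardly read otherwise. The median difference of all genes was 0.02. The test rests on 1 residual degree of freedom, that of the Tcf1 pair, and assumes that the single control array varies as that pair did. The same limma fit called 0 of 35399 probe sets when all, named or not, were tested together (3702 with an unadjusted p under 0.05), as against 874 of the named genes. An unmoderated test called 6 genes lower and 6 higher. In bulk samples, fewer cells of a type and less RNA per cell cannot be told apart.

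**Figure D1:**
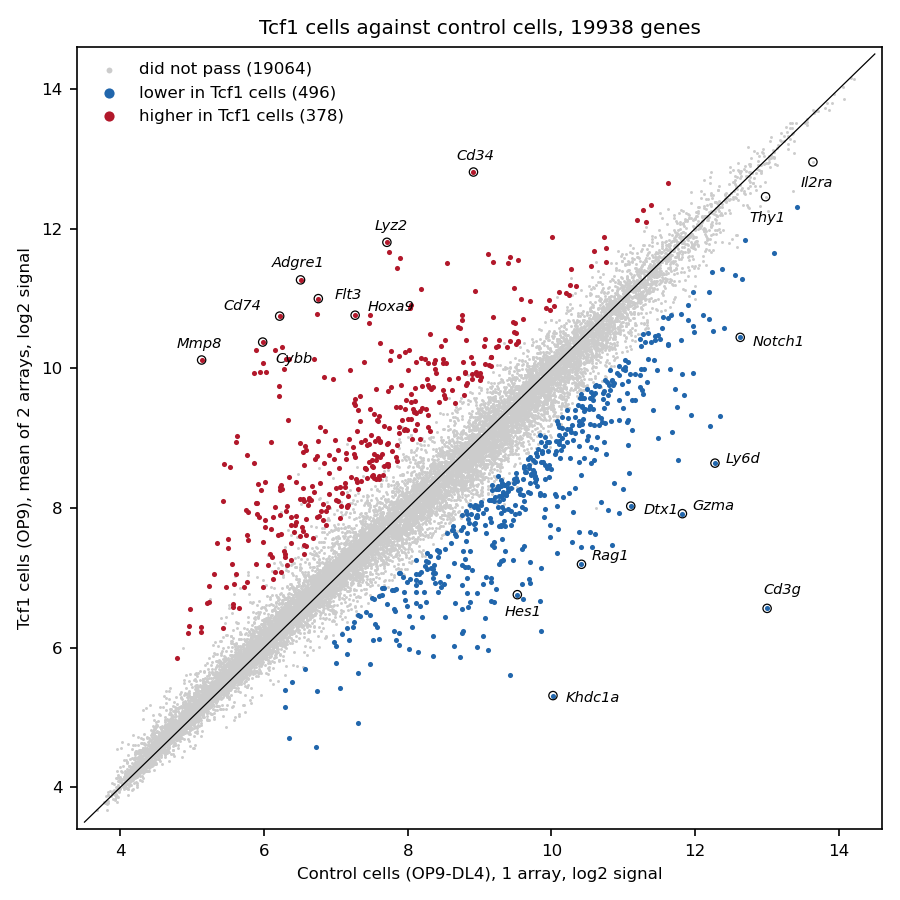
Each point is a gene, with its log2 signal on the control array on the x axis and the mean of both Tcf1 arrays on the y axis. Blue marks the 496 genes lower in Tcf1 cells, red the 378 higher and grey those that did not pass; Cd3g lies furthest below the line of equal signal and Mmp8 furthest above it, while the sort markers Il2ra and Thy1 lie near the line.

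The sort markers themselves did not pass the test. Il2ra, which encodes CD25, read 12.91 and 12.99 in the Tcf1 replicates, 13.64 in the control array and 6.88 in the LMPP array. Thy1 read 12.38 and 12.53 in the Tcf1 replicates, 12.98 in the control array and 8.13 in the LMPP array. Both Tcf1 arrays were a little below the control array for these genes and far above the LMPP array, and the differences of -0.69 (adjusted p = 0.0762, limma) and -0.52 (adjusted p = 0.187, limma) did not pass. Ptprc, which encodes CD45, differed by -0.22, Itgam, which encodes the excluded Mac1, by 0.53, and Ly6g, part of the excluded Gr1, by 0.31. None of these 5 genes of the sort passed. Il2ra was called lower under median centring, with the signal filter and with a prior that follows signal, and Thy1 with that prior.

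Some Notch target genes were lower in Tcf1 cells, among them Hes1, Dtx1 and Nrarp. Of 15 measured targets, 6 were lower, 0 higher and 9 did not pass, with a median difference of -0.64, where 2.49% of all genes were lower. The 6 were Hes1, Dtx1, Nrarp, Notch1, Notch3 and Gata3. Hes1, a transcriptional repressor and the classical target, read 6.73 and 6.79 in the Tcf1 replicates, 9.52 in the control array and 6.94 in the LMPP array. Dtx1, an E3 ligase of the Notch pathway, read 8.08 and 7.97 in the Tcf1 replicates, 11.10 in the control array and 8.07 in the LMPP array. Nrarp, a feedback inhibitor of Notch signalling, read 6.33 and 6.51 in the Tcf1 replicates, 9.08 in the control array and 6.94 in the LMPP array. In all of these genes both Tcf1 arrays lay more than 2-fold below the control array and near or below the LMPP array. The differences were -2.77 (SE 0.16, adjusted p = 0.000401, limma) for Hes1, -3.08 (SE 0.16, adjusted p = 0.000324, limma) for Dtx1 and -2.65 (SE 0.17, adjusted p = 0.00058, limma) for Nrarp.

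The receptors Notch1 and Notch3 were lower too, and most of the other machinery did not pass. Notch1, the receptor required for T lineage entry, read 10.28 and 10.60 in the Tcf1 replicates, 12.63 in the control array and 10.14 in the LMPP array, a difference of -2.18 (SE 0.19, adjusted p = 0.00187, limma). Notch3, which Notch1 signalling induces in thymocytes, read 7.74 and 7.97 in the Tcf1 replicates, 9.15 in the control array and 7.45 in the LMPP array, a difference of -1.29 (SE 0.18, adjusted p = 0.0102, limma). Of 22 measured pathway components, these receptors and the coactivator gene Maml2 (-1.18) were lower, 0 were higher and 19 did not pass. The components were receptors, genes of receptor modification, cleavage and turnover, and nuclear partners. Under median centring 5 were lower. A second probe set of Maml2 differed by -0.71. Rbpj, the DNA-binding partner, read 9.66 and 9.75 in the Tcf1 replicates and 9.71 in the control array, so the control array lay between the Tcf1 arrays. The secretase subunits Psenen (-0.02), Ncstn (0.01) and Aph1a (-0.01) were as close.

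Other targets did not pass. Myc, a Notch target in early T cells, read 12.14 and 12.25 in the Tcf1 replicates and 12.29 in the control array, with a difference of -0.09 (adjusted p = 0.932, limma). Ptcra, which encodes the pre-TCR alpha chain, read 6.97 and 6.82 in the Tcf1 replicates, 7.50 in the control array and 6.82 in the LMPP array. The control array was the highest, at about its median gene, and the difference of -0.60 (adjusted p = 0.124, limma) did not pass. Heyl differed by -0.64, and Hes5 (0.04), Hey1 (0.22) and Hey2 (-0.01) by less. Dll4, the ligand gene carried by the control stroma, read 7.31 and 7.44 in the Tcf1 replicates and 7.15 in the control array, a difference of 0.22 (adjusted p = 0.718, limma).

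CD3 genes had the lowest median of the T lineage lists. Of the 6 measured genes of the CD3 and pre-TCR complex, 5 were lower and only Ptcra did not pass, with a median difference of -2.84. Cd3g, the gamma chain, read 6.48 and 6.64 in the Tcf1 replicates, 13.001 in the control array and 5.62 in the LMPP array, a difference of -6.44 (SE 0.17, adjusted p = 7.3e-05, limma) or 86.8-fold in signal. Cd3e, the epsilon chain, read 7.45 and 7.42 in the Tcf1 replicates, 10.41 in the control array and 7.32 in the LMPP array, and Cd3d, the delta chain, read 5.96 and 5.78 in the Tcf1 replicates, 8.73 in the control array and 5.71 in the LMPP array. The Tcf1 arrays thus read Cd3e and Cd3d near the level of the LMPP array and not near that of the control cells, which departs from the T lineage label for these defining genes. Their differences were -2.98 (SE 0.16, adjusted p = 0.000324, limma) and -2.86 (SE 0.17, adjusted p = 0.000438, limma). The genes Cd3g, Cd3d and Cd3e are neighbours on the chromosome. Beside them, Mpzl2 (-1.42) was lower, while Ube4a (-0.14) and Kmt2a (-0.61) on the other side did not pass.

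The zeta chain and an adaptor kept intermediate levels. Cd247, the zeta chain, read 8.69 and 9.08 in the Tcf1 replicates, 10.39 in the control array and 7.23 in the LMPP array. Trat1, an adaptor that associates with the receptor, read 7.81 and 8.12 in the Tcf1 replicates, 10.79 in the control array and 5.28 in the LMPP array. For both genes the Tcf1 arrays lay between the LMPP and control arrays, with differences of -1.50 (SE 0.21, adjusted p = 0.0102, limma) and -2.82 (SE 0.19, adjusted p = 0.000696, limma) from the control. The summed signal of the 6 genes, on the linear scale, was 1089 and 1257 in the Tcf1 replicates, 13270 in the control array and 563 in the LMPP array. Cd3g alone, at 13.001, makes up most of this sum in the control array. Over 7 defining macrophage genes the same sum was higher in the Tcf1 replicates, at 4804 and 5949, than in the control array, at 1074. Whether other cells among the sorted Tcf1 cells take part in the lower T lineage values was not tested.

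Signalling genes below the receptor followed in part. Of 23 measured genes, 10 were lower, 0 higher and 13 did not pass, with a median of -0.80. Prkcq, a kinase of the T cell synapse, differed by -2.72 (SE 0.22, adjusted p = 0.00122, limma). Themis, which tunes receptor signals in thymocytes, read 6.19 and 6.27 in the Tcf1 replicates, 8.76 in the control array and 5.89 in the LMPP array, so that both Tcf1 arrays were close to the LMPP array. Lat, the central adaptor, read 10.52 and 10.62 in the Tcf1 replicates, 12.40 in the control array and 9.29 in the LMPP array, between the LMPP and control arrays. Themis differed by -2.53 (SE 0.16), Lat by -1.83 (SE 0.16), Plcg1, a phospholipase, by -1.57 (SE 0.17) and Txk, a Tec family kinase, by -1.20 (SE 0.21). Members that did not pass included Zap70 (0.11), Fyn (-0.66) and Ubash3a (0.66), and Rasgrp1, an activator of Ras, at -0.88 (adjusted p = 0.0509, limma).

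Recombinase genes were near the LMPP level. Of 13 measured genes of antigen receptor recombination, 5 were lower and 8 did not pass, and all 13 had a difference below 0 (median -0.50). Rag1, the recombinase subunit that cuts DNA, read 7.10 and 7.28 in the Tcf1 replicates, 10.42 in the control array and 6.68 in the LMPP array. Rag2, its partner and chromosomal neighbour, read 6.37 and 6.79 in the Tcf1 replicates, 8.83 in the control array and 7.24 in the LMPP array. Dntt, the terminal transferase that adds bases at junctions, read 9.77 and 10.06 in the Tcf1 replicates, 11.81 in the control array and 9.66 in the LMPP array. Both Tcf1 arrays lay well below the control array in each, and the differences were -3.23 (SE 0.17, adjusted p = 0.000324, limma), -2.26 (SE 0.21, adjusted p = 0.00244, limma) and -1.90 (SE 0.19, adjusted p = 0.00292, limma). The end-joining genes Lig4 (-1.21) and Xrcc6 (-1.15) were lower, and Xrcc5 (-0.82), Prkdc (-0.07) and Poll (-0.04) did not pass. Traf6, on the far side of Rag1 from Rag2, differed by -0.18.

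**Figure D2:**
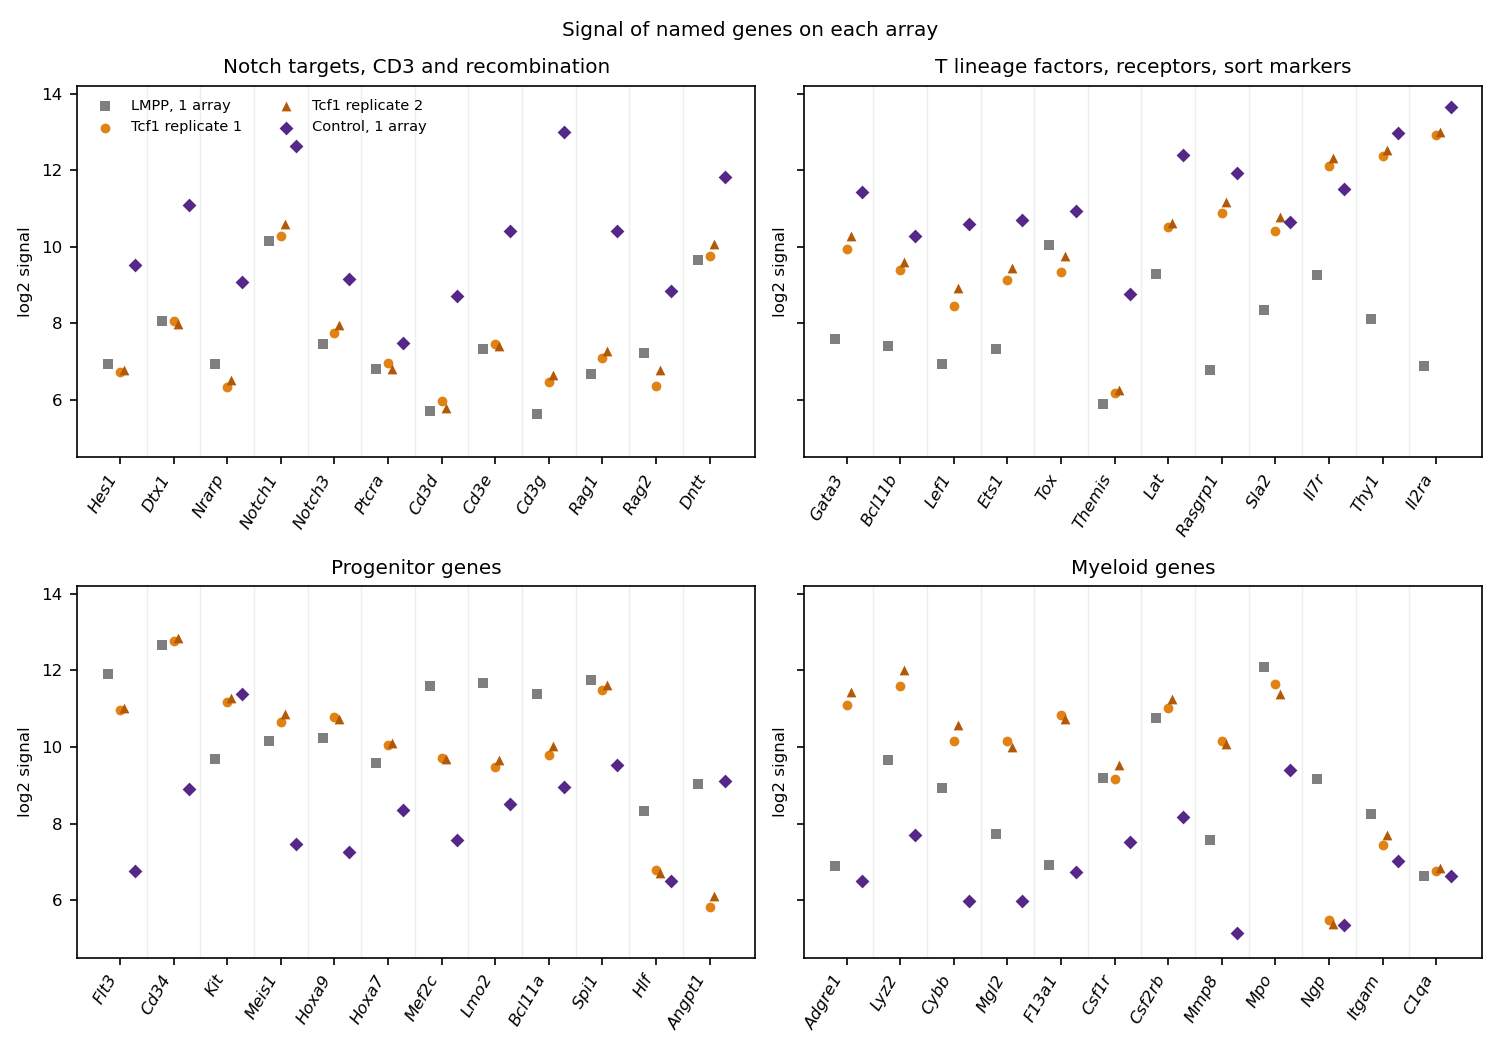
Log2 signal (y axis) of selected genes (x axis) on each of the 4 arrays: squares for the LMPP array, circles and triangles for the Tcf1 replicates and diamonds for the control array. Hes1, Dtx1, Cd3d, Cd3e and Rag1 show both Tcf1 arrays near the LMPP array, Gata3, Bcl11b and Lef1 show them between the LMPP and control arrays, and Flt3, Cd34, Meis1 and Hoxa9 show the control array far below the other three.

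Part of the T lineage factors passed as lower, at levels that stood differently to the LMPP array from gene to gene. Of 25 measured, 8 were lower, 0 higher and 17 did not pass (median -0.50). Gata3, required for T cell development, read 9.95 and 10.29 in the Tcf1 replicates, 11.42 in the control array and 7.58 in the LMPP array. Lef1, the closest relative of Tcf1, read 8.44 and 8.92 in the Tcf1 replicates, 10.59 in the control array and 6.93 in the LMPP array. Ets1, which acts on many T cell genes, read 9.14 and 9.44 in the Tcf1 replicates, 10.70 in the control array and 7.34 in the LMPP array. For all of these both Tcf1 arrays lay between the LMPP and control arrays, and the differences from the control array were -1.30 (SE 0.20, adjusted p = 0.0144, limma), -1.91 (SE 0.23, adjusted p = 0.0056, limma) and -1.41 (SE 0.19, adjusted p = 0.00925, limma). Tox (-1.40), Patz1 (-1.29), Id3 (-1.16), Gfi1 (-1.12) and Ets2 (-1.37) were also lower. For Tox, Id3 and Ets2 both Tcf1 arrays read below the LMPP array as well, and for Patz1 and Gfi1 they read near it.

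Bcl11b, the factor of T lineage commitment, read 9.40 and 9.60 in the Tcf1 replicates, 10.28 in the control array and 7.42 in the LMPP array. Both Tcf1 arrays were below the control array, with a difference of -0.78 (adjusted p = 0.0593, limma) that did not pass. Bcl11b was called lower under median centring and with the signal filter. It was also called when genes were read as the mean of their probe sets, although Bcl11b has 1 probe set and its own values stayed the same. Runx3 differed by -0.78, Runx1 by -0.41, Satb1 by -0.28 and Ikzf1 by -0.12, and Id2, an inhibitor of E proteins, by 0.30. Of 20 measured Wnt and Tcf pathway genes, only Lef1 passed, as lower, near the share over all genes (2.49% lower, 1.90% higher). The other 19 did not pass. Among these, Axin2, a common reporter of the pathway, differed by -0.29, Ctnnb1, which encodes beta-catenin, by 0.10, and Tcf7l2, another Tcf gene, by 0.79.

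Cytokine receptor genes moved both ways. Of 17 measured, 4 were lower and 2 higher (median -0.32). Il17rb, a receptor of IL-17 family cytokines, read 9.30 and 9.50 in the Tcf1 replicates, 11.41 in the control array and 7.46 in the LMPP array, and Tgfbr1, a receptor of TGF-beta, read 9.52 and 9.74 in the Tcf1 replicates, 11.27 in the control array and 9.52 in the LMPP array. Their differences were -2.01 (SE 0.17, adjusted p = 0.00168, limma) and -1.64 (SE 0.18, adjusted p = 0.00406, limma), and Il12rb1 (-1.36) and Il18r1 (-1.22) were lower as well. Il6ra, the IL-6 receptor, read 9.45 and 9.44 in the Tcf1 replicates, 7.83 in the control array and 9.60 in the LMPP array, with the control array alone being low, a difference of 1.61 (SE 0.16, adjusted p = 0.00296, limma). Ifngr2, a chain of the interferon gamma receptor, was higher by 0.99. Il7r, the receptor for the IL7 added to both cultures, read 12.11 and 12.33 in the Tcf1 replicates, 11.51 in the control array and 9.27 in the LMPP array, and its difference of 0.70 (adjusted p = 0.0916, limma) did not pass. Median centring brought the number higher from 2 to 4.

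Homing and costimulatory receptors differed gene by gene. Of 14 homing receptors, Cxcr5 (-1.77), Itgae (-1.31) and Ccr4 (-1.25) were lower and Cd44 was higher by 1.55; median centring called 5 lower and 3 higher. Cd44 falls as thymocytes pass the CD25-positive stage, and it read 9.39 and 9.51 in the Tcf1 replicates, 7.90 in the control array and 10.32 in the LMPP array. Of 18 coreceptor and costimulation genes, Ctla4, Cd7 and Cd2 (-0.94) were lower and Pdcd1 and Cd96 higher. Ctla4, an inhibitory receptor, read 8.97 and 9.37 in the Tcf1 replicates, 12.20 in the control array and 7.13 in the LMPP array, a difference of -3.03 (SE 0.21, adjusted p = 0.00072, limma). Pdcd1, which encodes the inhibitory receptor PD-1, read 9.44 and 9.60 in the Tcf1 replicates, 8.04 in the control array and 7.32 in the LMPP array, a difference of 1.48 (SE 0.17, adjusted p = 0.00492, limma). Cd7 differed by -1.72 and Cd96 by 1.21. The coreceptor genes Cd4 (0.18), Cd8a (0.04) and Cd8b1 (0.00) did not pass and read between 6.03 and 6.96 in the Tcf1 and control arrays, among the dimmer genes of each array.

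Genes of gamma delta and innate-like T cells were in part lower. Of 14 measured, 4 were lower, with Il17rb among them, and 5830411N06Rik (1.25) was higher (median -0.59). Blk, a Src family kinase of B cells and IL-17-producing gamma delta T cells, read 7.30 and 7.63 in the Tcf1 replicates, 10.84 in the control array and 7.53 in the LMPP array, a difference of -3.38 (SE 0.19, adjusted p = 0.000396, limma). Cd163l1, a scavenger receptor, read 9.69 and 9.71 in the Tcf1 replicates, 11.72 in the control array and 7.99 in the LMPP array, a difference of -2.02 (SE 0.16, adjusted p = 0.00112, limma). Zbtb16, which encodes PLZF, differed by -1.36. Il17a (-0.08) and Il17f (0.06) did not pass.

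Natural killer and cytotoxic genes also split. Of 24 measured, 2 were lower and 4 higher (median 0.29), and median centring called 7 higher. Gzma, a granule protease, read 7.89 and 7.94 in the Tcf1 replicates, 11.82 in the control array and 7.25 in the LMPP array, a difference of -3.91 (SE 0.16, adjusted p = 0.000167, limma). Nkg7, a granule membrane protein, was lower (-1.45). Tyrobp, a signalling adaptor of NK and myeloid cells, read 11.80 and 11.94 in the Tcf1 replicates, 10.01 in the control array and 11.39 in the LMPP array, a difference of 1.86 (SE 0.17, adjusted p = 0.00195, limma). Klrd1, which encodes CD94, was higher by 1.85 and the chemokines Ccl5 and Xcl1 by 1.93 and 1.01. The NK lineage genes Klrb1c (-0.05), Ncr1 (0.37), Tbx21 (0.20) and Eomes (0.42) did not pass.

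The Gimap genes, a cluster of lymphocyte GTPases, were lower together. Of 8 measured, 7 were lower and Gimap8 at -0.85 (adjusted p = 0.0543, limma) did not pass (median -1.87). Gimap6 read 6.89 and 7.40 in the Tcf1 replicates, 9.85 in the control array and 8.79 in the LMPP array. Gimap9 read 7.36 and 7.79 in the Tcf1 replicates, 9.98 in the control array and 8.13 in the LMPP array. Gimap4 read 5.65 and 6.22 in the Tcf1 replicates, 8.15 in the control array and 5.69 in the LMPP array. In each the control array was the highest of the 4 arrays, and the differences were -2.71 (SE 0.23, adjusted p = 0.00174, limma), -2.40 (SE 0.21, adjusted p = 0.00197, limma) and -2.21 (SE 0.25, adjusted p = 0.00468, limma). Gimap5 differed by -2.67 (SE 0.44), but its Tcf1 replicates lay 1.25 apart and the call was lost after renewed quantile normalization (adjusted p = 0.0607, limma). Zfp775, next to the cluster, differed by -0.06.

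Several MAP kinase phosphatase genes were lower. Of 21 measured genes of MAP kinase feedback and the immediate early response, 5 were lower and 0 higher (median -0.20). Dusp4, a nuclear MAP kinase phosphatase, read 6.42 and 6.91 in the Tcf1 replicates, 9.84 in the control array and 6.73 in the LMPP array, a difference of -3.17 (SE 0.23, adjusted p = 0.000891, limma). Dusp10 (-1.89), Dusp6 (-1.34), Dusp2 (-1.01) and Jun (-1.14) were also lower. Fos (0.17), Egr1 (0.32) and Junb (0.20) did not pass.

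**Figure D3:**
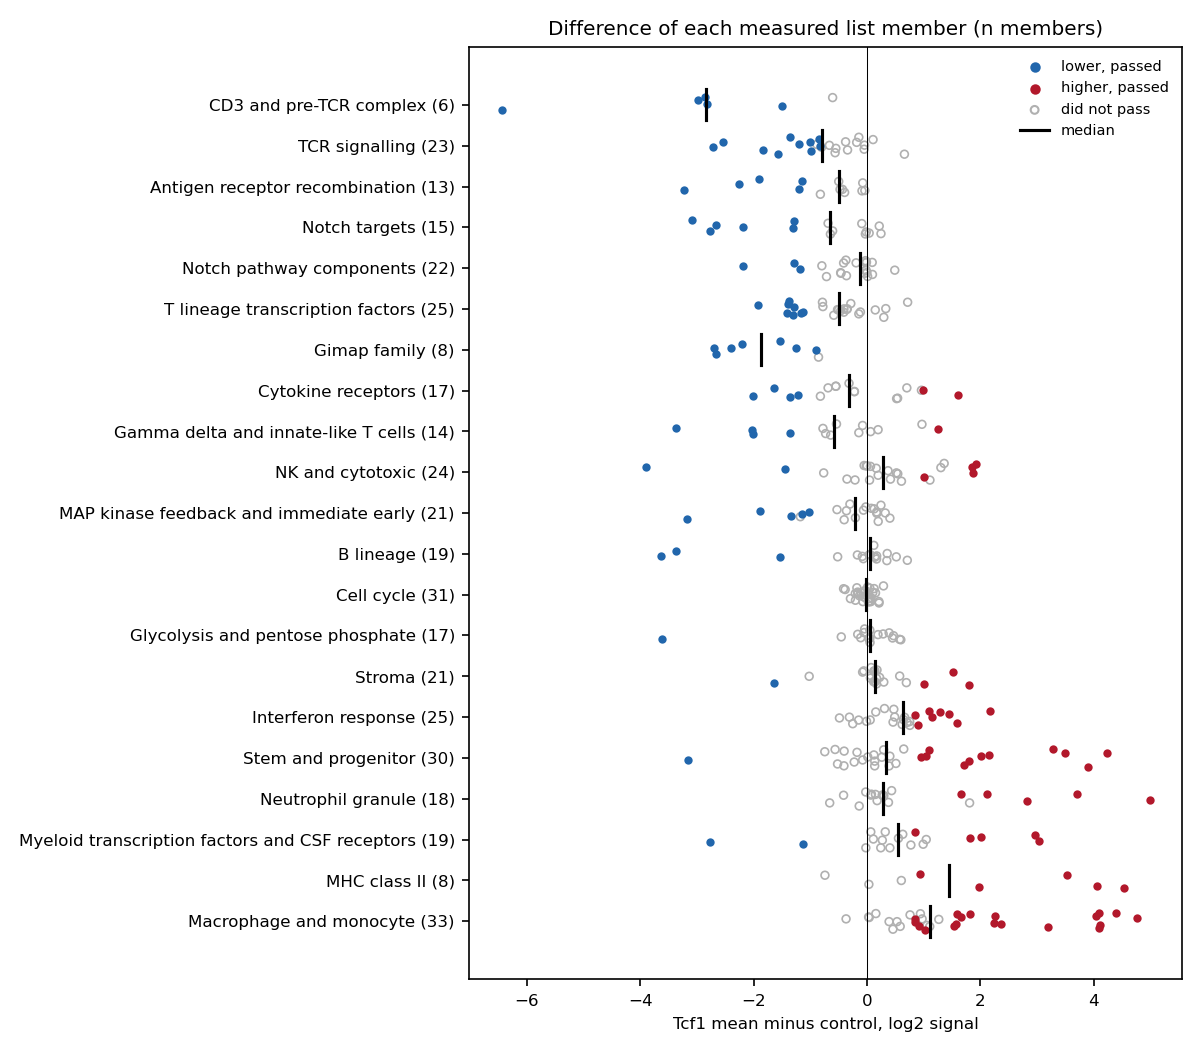
Each point is a measured member of a gene list (y axis, with the number measured), placed by its difference, Tcf1 mean minus control, on the log2 scale (x axis). Blue and red points passed the test, open grey points did not, and black bars are list medians, which run from -2.84 for the CD3 genes to 1.46 for MHC class II.

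A group of progenitor genes was higher in Tcf1 cells than in control cells, where 1.90% of all genes were higher. Of 30 measured stem and progenitor genes, 11 were higher, 1 lower and 18 did not pass, with a median of 0.34. Flt3, a receptor kinase whose high level defined the sorted LMPPs, read 11.91 in the LMPP array, 10.97 and 11.03 in the Tcf1 replicates and 6.75 in the control array. Cd34, a surface sialomucin of progenitors, read 12.67 in the LMPP array, 12.76 and 12.86 in the Tcf1 replicates and 8.91 in the control array. Both were high in 3 arrays and low in the control array alone, with differences of 4.24 (SE 0.16, adjusted p = 0.000167, limma) and 3.90 (SE 0.16, adjusted p = 0.000167, limma). Signal was thus 18.9-fold higher for Flt3 and 14.9-fold higher for Cd34.

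The homeobox genes Hoxa9 and Meis1 were also lowest in the control array. Hoxa9, a homeobox factor of stem and progenitor cells, read 10.23 in the LMPP array, 10.78 and 10.74 in the Tcf1 replicates and 7.27 in the control array. Meis1, its DNA-binding partner, read 10.16 in the LMPP array, 10.66 and 10.87 in the Tcf1 replicates and 7.48 in the control array. Both Tcf1 arrays read above the LMPP array here, the control array was the only low one, and the differences were 3.49 (SE 0.16, adjusted p = 0.000219, limma) and 3.29 (SE 0.17, adjusted p = 0.000324, limma). Hoxa5 (1.81), Hoxa7 (1.72) and Hoxa10 (1.10) were higher as well.

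Other progenitor regulators lay between the progenitors and the control cells. Mef2c, a factor of lymphoid and myeloid progenitors, read 11.58 in the LMPP array, 9.72 and 9.70 in the Tcf1 replicates and 7.56 in the control array, a difference of 2.15 (SE 0.16, adjusted p = 0.000941, limma). Lmo2, a bridging factor of haematopoietic complexes, read 11.67 in the LMPP array, 9.47 and 9.67 in the Tcf1 replicates and 8.52 in the control array. Bcl11a read 11.38 in the LMPP array, 9.80 and 10.02 in the Tcf1 replicates and 8.96 in the control array. Lmo2 and Bcl11a differed from the control array by 1.05 and 0.95. Kit, which remains on early T cells, differed by -0.17 (adjusted p = 0.805, limma) and did not pass, nor did Hlf (0.26), Mecom (0.12) or Gata2 (-0.22). The exception was Angpt1, the secreted ligand angiopoietin. It read 9.03 in the LMPP array, 5.82 and 6.10 in the Tcf1 replicates and 9.11 in the control array, a difference of -3.15 (SE 0.19, adjusted p = 0.000423, limma).

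Myeloid regulators and colony-stimulating factor receptors were in part higher. Of 19 measured, 5 were higher and 2 lower (median 0.56). Spi1, which encodes PU.1 and is shut off as T cells commit, read 11.74 in the LMPP array, 11.48 and 11.61 in the Tcf1 replicates and 9.54 in the control array, a difference of 2.01 (SE 0.17, adjusted p = 0.00134, limma). Csf2rb, the shared beta chain of the GM-CSF, IL-3 and IL-5 receptors, read 10.75 in the LMPP array, 11.03 and 11.25 in the Tcf1 replicates and 8.18 in the control array. Csf2rb2, its neighbour and close copy for the IL-3 receptor, read 9.11 in the LMPP array, 9.63 and 10.12 in the Tcf1 replicates and 6.84 in the control array. Their differences were 2.96 (SE 0.18, adjusted p = 0.000438, limma) and 3.04 (SE 0.23, adjusted p = 0.000981, limma), and probes of such near-identical copies may share signal. Ncf4 (-0.37) and Tex33 (0.00) on either side of the pair did not pass.

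Csf1r, the receptor of macrophage colony-stimulating factor, was higher by 1.82 and Cebpd by 0.85. Cebpa, the factor of granulocyte and monocyte progenitors, read 9.14 in the LMPP array, 8.17 and 8.37 in the Tcf1 replicates and 7.49 in the control array, and its difference of 0.78 (adjusted p = 0.0616, limma) did not pass. Cebpb (0.24), Irf8 (0.56) and Csf3r (0.63) did not pass either. Lower were Klf4, a factor of monocytes and of quiescent lymphocytes, at -2.77, and Gfi1, a repressor that acts in T cell and granulocyte precursors, at -1.12.

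Some neutrophil granule genes were higher in Tcf1 cells, among them Mpo, Prtn3, Elane and Mmp8. Of 18 measured neutrophil granule genes, 5 were higher and 13 did not pass (median 0.28). Mpo, myeloperoxidase, read 12.08 in the LMPP array, 11.64 and 11.37 in the Tcf1 replicates and 9.39 in the control array. Prtn3, proteinase 3, read 11.36 in the LMPP array, 10.91 and 10.81 in the Tcf1 replicates and 8.03 in the control array. Elane, neutrophil elastase, read 11.77 in the LMPP array, 9.07 and 9.42 in the Tcf1 replicates and 7.58 in the control array. Both Tcf1 arrays lay above the control array and below the LMPP array in all of these, and the differences from the control array were 2.12 (SE 0.18, adjusted p = 0.00175, limma), 2.82 (SE 0.16, adjusted p = 0.000401, limma) and 1.66 (SE 0.20, adjusted p = 0.00587, limma). Ms4a3, a gene of granulocyte and monocyte progenitors, was higher by 3.71.

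Mmp8, the neutrophil collagenase, had a different pattern. It read 7.58 in the LMPP array, 10.15 and 10.09 in the Tcf1 replicates and 5.13 in the control array, with both Tcf1 arrays above the LMPP array too, and a difference of 4.99 (SE 0.16, adjusted p = 0.000147, limma). Among the 13 members that did not pass, Ngp differed by 0.08, Ltf by -0.41, Camp by 0.15, S100a8 by 0.38 and S100a9 by 0.27. Over 7 defining granulocyte genes, 2 of which (Mpo and Elane) were higher, the summed linear signal was 4151 and 3744 in the Tcf1 replicates, 1265 in the control array and 9026 in the LMPP array. Mpo alone, at 11.64 and 11.37, makes up most of this sum in the Tcf1 replicates. On the Tcf1 and control arrays 2 of the 7 were below the 25th percentile of genes, and the part of granulocytes in these differences was not tested.

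Macrophage and monocyte genes had a larger share of higher members than any other list except MHC class II (5 of 8). Of 33 measured, 19 were higher, 0 lower and 14 did not pass, with a median of 1.11. Adgre1, which encodes an adhesion receptor that marks macrophages, read 6.89 in the LMPP array, 11.10 and 11.43 in the Tcf1 replicates and 6.51 in the control array. F13a1, a coagulation factor subunit made by monocytes and macrophages, read 6.92 in the LMPP array, 10.82 and 10.72 in the Tcf1 replicates and 6.74 in the control array. Mgl2, a lectin of macrophages and dendritic cells, read 7.74 in the LMPP array, 10.15 and 10.00 in the Tcf1 replicates and 5.98 in the control array. For all of these the Tcf1 arrays were the highest and the LMPP and control arrays low, with differences from the control array of 4.76 (SE 0.19, adjusted p = 0.000167, limma), 4.03 (SE 0.16, adjusted p = 0.000167, limma) and 4.10 (SE 0.17, adjusted p = 0.000167, limma).

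Phagocyte genes read as follows. Lyz2, lysozyme, read 9.66 in the LMPP array, 11.59 and 12.01 in the Tcf1 replicates and 7.71 in the control array. Cybb, the catalytic subunit of the phagocyte NADPH oxidase, read 8.92 in the LMPP array, 10.16 and 10.59 in the Tcf1 replicates and 5.98 in the control array. Wfdc17, a secreted inhibitor of activated macrophages, read 9.50 in the LMPP array, 9.95 and 10.56 in the Tcf1 replicates and 6.14 in the control array. The Tcf1 arrays were the highest and the control array the lowest in all, with differences of 4.09 (SE 0.21, adjusted p = 0.000314, limma), 4.39 (SE 0.21, adjusted p = 0.000268, limma) and 4.11 (SE 0.26, adjusted p = 0.000555, limma). Sirpa (3.19), Ctss (2.37), Mrc1 (2.27), C1qb (2.24) and Cd68 (1.60) were higher too.

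Some macrophage genes did not pass: C1qa at 0.16, Marco at 0.03, Apoe at 0.04 and Mertk at 0.94. C1qc read 6.22 in the LMPP array, 7.08 and 7.60 in the Tcf1 replicates and 6.28 in the control array, with a difference of 1.06 (adjusted p = 0.0625, limma). Of 7 defining macrophage genes (Adgre1, Csf1r, Cd68, C1qa, C1qb, C1qc and Mertk), 4 were higher. Their summed linear signal was 4804 and 5949 in the Tcf1 replicates, 1074 in the control array and 2385 in the LMPP array. Over all 33 genes it was 27924 and 32942 in the Tcf1 replicates, 9938 in the control array and 17791 in the LMPP array. The sort removed Mac1-positive and Gr1-positive cells but did not use the product of Adgre1. Whether a share of macrophages or other myeloid cells in the sorted Tcf1 cells takes part in these differences was not tested.

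Most MHC class II genes were higher in Tcf1 cells, with a wide gap between the replicates. Of 8 measured, 5 were higher and 3 did not pass (median 1.46). Cd74, the invariant chain, read 11.21 in the LMPP array, 10.18 and 11.32 in the Tcf1 replicates and 6.22 in the control array. H2-Aa, the alpha chain of I-A, read 10.18 in the LMPP array, 9.24 and 10.61 in the Tcf1 replicates and 5.86 in the control array. H2-Ab1, its beta chain, read 10.31 in the LMPP array, 9.09 and 10.40 in the Tcf1 replicates and 6.20 in the control array. The control array was far below the other arrays in each, and replicate 2 lay 1.14, 1.37 and 1.31 above replicate 1. The differences were 4.53 (SE 0.41, adjusted p = 0.00206, limma), 4.06 (SE 0.48, adjusted p = 0.00587, limma) and 3.54 (SE 0.46, adjusted p = 0.00854, limma). H2-Eb1 (1.98) and H2-DMa (0.93) were also higher, and Ciita, the master coactivator of the class, at 0.61 (adjusted p = 0.218, limma) did not pass. Of 16 dendritic cell genes, Flt3 and the lectin Clec10a (2.66) were higher and 14 did not pass, among them Itgax (0.22), Zbtb46 (0.26) and Batf3 (0.28); median centring called 5 higher.

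**Figure D4:**
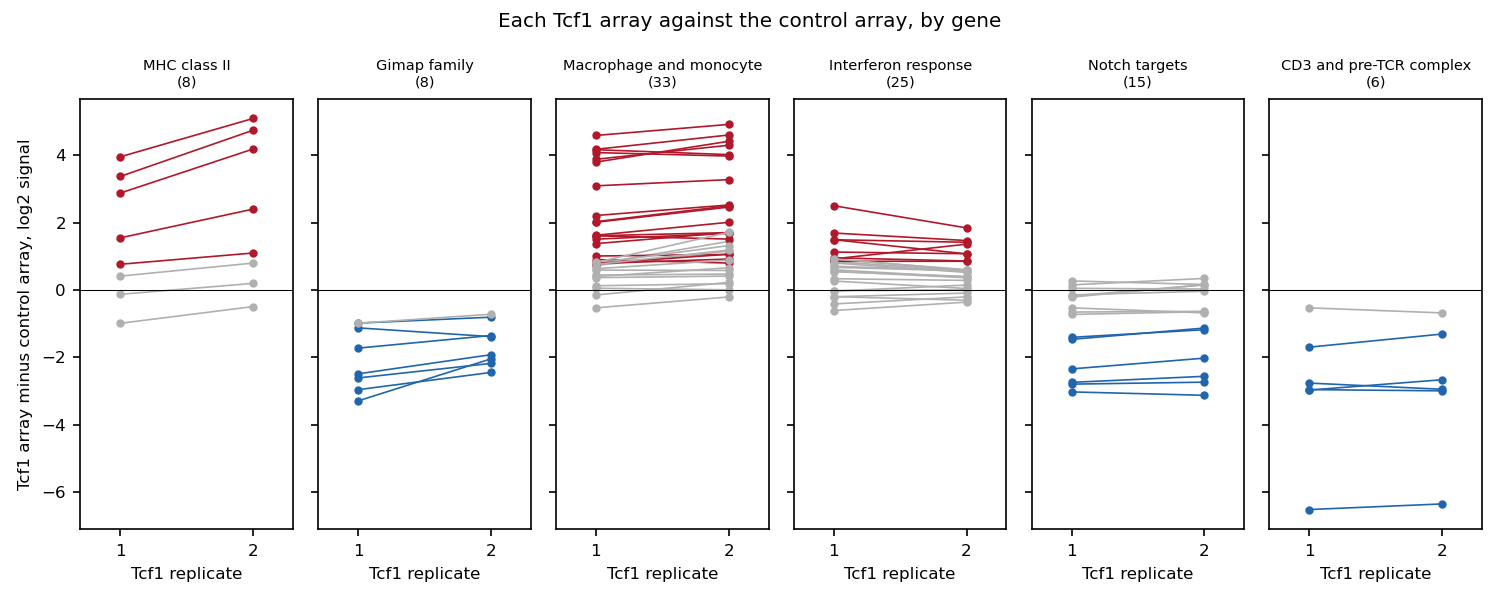
Each line joins a gene's log2 difference from the control array in Tcf1 replicate 1 and Tcf1 replicate 2 (x axis), by list, on a shared y axis; blue and red lines are genes that passed and grey lines genes that did not. Replicate 2 is the higher in 8 of 8 MHC class II genes, with a median gap of 0.68, against 0.15 for Notch targets.

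The Tcf1 replicates were not equal across lists. Replicate 2 read above replicate 1 in 13528 of 19938 genes (median 0.08), in 780 of the 874 genes past the test, in 27 of 33 macrophage genes and in 8 of 8 MHC class II genes. The median gap between replicates was 0.15 over all genes, 0.68 over MHC class II, 0.40 over the Gimap genes and 0.15 over Notch targets. At least 2-fold apart between replicates were 65 genes, 10 of them past the test, among them H2-Aa, H2-Ab1, Cd74, Gimap5 and Clec4a1. Interferon response genes went the other way, with replicate 2 above replicate 1 in 7 of 25. Counted as at least 2-fold from the control array, MHC class II held 4 higher genes with replicate 1 alone and 5 with replicate 2 alone, and CD3 held 5 lower genes with either.

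Interferon response genes were higher in part. Of 25 measured, 8 were higher, 0 lower and 17 did not pass (median 0.64). Oas2, an activator of RNA decay, read 6.82 in the LMPP array, 10.82 and 10.16 in the Tcf1 replicates and 8.31 in the control array. Usp18, a brake on interferon signalling, read 7.50 in the LMPP array, 9.96 and 9.73 in the Tcf1 replicates and 8.26 in the control array. Both genes were lowest in the LMPP array and highest in the Tcf1 arrays, with differences from the control array of 2.18 (SE 0.27, adjusted p = 0.00699, limma) and 1.58 (SE 0.18, adjusted p = 0.00461, limma). Oas1a (1.46), Oas3 (1.10), Mx1 (1.14), Ifit3 (0.91) and Mx2 (0.85) were higher. Ifit1 was higher by 1.28, and its call was lost after renewed quantile normalization (adjusted p = 0.0948, limma). Irf7 (0.62), Stat2 (-0.15) and Irf9 (0.31) did not pass.

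Some markers of further cell types passed, against 2.49% of all genes lower and 1.90% higher. Of 21 stroma genes, Fn1 (1.80), Bgn (1.52) and Fstl1 (1.01) were higher and Pdgfrb (-1.63) lower, and Fn1 was not called after renewed quantile normalization (adjusted p = 0.0648, limma). The collagens Col1a1 (0.17) and Col3a1 (0.18) did not pass. The summed signal of 5 defining stroma genes was 1104 and 1176 in the Tcf1 replicates, 1672 in the control array and 1197 in the LMPP array. Pdgfrb alone, at 9.85, makes up most of this sum in the control array. Over all 21 stroma genes the sum was 12933 and 15176 in the Tcf1 replicates, 13433 in the control array and 4145 in the LMPP array. There the control array lay between the Tcf1 replicates, and the LMPP array was the lowest. The part of stroma in these differences was not tested. Of 19 B lineage genes, Ly6d (-3.63), Blk and Cd79b (-1.53) were lower, and Pax5 (0.06), Ebf1 (-0.52) and Cd79a (-0.06) did not pass. Of 16 genes of mast cells, basophils, red cells and megakaryocytes, Mcpt8 (-1.83), a basophil protease, and Car2 (-1.20), a carbonic anhydrase, were lower; the call of Car2 was lost after renewed quantile normalization (adjusted p = 0.0709, limma).

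No measured gene of the growth and survival lists passed, where 2.49% of all genes were lower and 1.90% higher. At these shares, lists of this size would hold few calls or none, and no list was tested as a group. In limma, 0 of 31 cell cycle genes passed (median -0.02), with differences between -0.41 and 0.29 and 1 gene, on the lower side, with an unadjusted p under 0.05. Mki67, a marker of cycling cells, read 11.99 and 12.01 in the Tcf1 replicates and 12.11 in the control array. Ccnd2, cyclin D2, differed by -0.03. In limma, 0 of 9 D cyclins and cyclin-dependent kinase inhibitors, 0 of 13 Bcl2 family genes and 0 of 8 Socs genes passed, with 1, 2 and 2 genes at an unadjusted p under 0.05. Bcl2 itself read 12.39 and 12.69 in the Tcf1 replicates and 12.68 in the control array.

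Some genes of the metabolic lists passed, beside shares of 2.49% lower and 1.90% higher over all genes. Of 17 glycolysis and pentose phosphate genes only Fbp1, the gluconeogenic fructose bisphosphatase, passed. It read 6.38 in the LMPP array, 6.05 and 6.44 in the Tcf1 replicates and 9.86 in the control array, so that the control array alone was high, with a difference of -3.62 (SE 0.21, adjusted p = 0.000396, limma). A prior with a trend on signal called 5 genes of this list higher, against 0. Of 15 genes of the oxidative stress and aryl hydrocarbon responses, Nqo1, a quinone oxidoreductase, read 6.44 in the LMPP array, 5.26 and 5.94 in the Tcf1 replicates and 9.42 in the control array, a difference of -3.82 (SE 0.28, adjusted p = 0.000891, limma), while Hmox1 (1.12) and Gclm (0.88) were higher. Of 21 cholesterol and fatty acid synthesis genes, 19 had a difference below 0 (median -0.32), and Cyp51 at -0.83 was the one past the test. Its call was lost after renewed quantile normalization (adjusted p = 0.0597, limma), and median centring called 6 genes of the list.

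Among the largest differences, several genes stood outside these lists. Khdc1a read 4.99 and 5.64 in the Tcf1 replicates, 10.02 in the control array and 4.44 in the LMPP array, a difference of -4.71 (SE 0.27, adjusted p = 0.000396, limma). Atp1b1, a sodium pump subunit, differed by -3.07, Fam20a by -3.03 and Scin, an actin-severing protein, by -3.02. On the higher side, Rhoj, a small GTPase, read 11.53 and 11.79 in the Tcf1 replicates, 7.74 in the control array and 7.17 in the LMPP array, a difference of 3.92 (SE 0.18, adjusted p = 0.000219, limma). Tfec, a transcription factor of macrophages, read 10.40 and 10.21 in the Tcf1 replicates, 6.25 in the control array and 10.22 in the LMPP array, with the control array alone low and a difference of 4.05 (SE 0.17, adjusted p = 0.00017, limma). Ly6a2 (4.37), from a family with shared sequence, and Ccl22 (3.91), a chemokine of dendritic cells and macrophages, completed the group together with Ms4a6d (3.99).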

How the data were processed

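RNA of 2 Tcf1, 1 control and 1 LMPP sample was measured on Affymetrix arrays after Ambion WT amplification, per the labels' protocols. The values the authors deposited are log2 signals per probe set, made with RMA and Partek 6.5, per the submitters' processing notes; base 2 was inferred from RMA and the range of values. The number of arrays limits the precision.

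Of 35399 probe sets, 21789 had a single gene symbol, and the highest-mean probe set of each gene left 19938 genes, unfiltered. Group means over the 4 arrays were fitted with limma 3.58.1 (R 4.3.3) with empirical Bayes moderation (prior of 5.78 degrees of freedom, SD 0.141). Data of this size were simulated 20 times with 200 changed genes. In them, 47.2% of 2-fold and 99.5% of 4-fold changes were recovered. Of the calls, 9.43% were false, a larger share than the threshold on adjusted p allows. A simulation cannot show whether the single control array varies as the Tcf1 pair did. The 9.43% is therefore no estimate of false calls among the real genes. Members, lists and tests were chosen with earlier results of these data known. Named genes are the 15 largest differences per direction (past the test, both Tcf1 arrays on one side, higher group above the median gene, no predicted or clone-named genes), up to 4 called members per list, the sort genes and a set list of 26; other members were named after their values were seen. Of 607 list entries, 43 had no single-gene probe set and are not analysed here. RefSeq promoters were matched by symbol, for 363 of the 496 lower and 296 of the 378 higher genes.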

Additional observations from a re-analysis of the deposited data

Results flagged for a closer look

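Probe sets without a gene symbol were used in no gene comparison. Of these 11989 probe sets, 18 had both Tcf1 arrays at least 2-fold above the control array and 176 had both at least 2-fold below it. Over them the difference between the Tcf1 replicates had an SD of 0.55 across probe sets, against 0.24 over named genes. They carry no name here, and what they measure was not tested.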

How the results depend on the processing

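The counts of 496 lower and 378 higher genes stayed within 1.5 times after renewed quantile normalization, with a prior that follows signal and with the mean of a gene's probe sets. Without the LMPP array, which adds no residual degree of freedom, the counts were bound to be the same. They became 1044 and 602 after median centring (36.6% higher, against 43.2%) and 833 and 604 over genes above the 25th percentile of mean signal. An unmoderated test called 6 and 6, sharing 0 genes with the 874 (1161 genes with an unadjusted p under 0.05), and a limma fit over all probe sets called 0 and 0 (3702 of 35399 with an unadjusted p under 0.05). The wider spread of the 11989 unnamed probe sets enters that fit, as do probe sets with several symbols. Their part in the loss of calls was not tested. Of 100 named genes past the test, 100 stayed past it under median centring, the signal filter, the trend and the mean of probe sets, 95 after renewed quantile normalization and 0 in the unmoderated and all-probe-set fits. Among the named genes, Maml2 alone has several probe sets. No named gene past the test changed direction in any of these alternatives or without either replicate. For the replicates the test all but fixes this outcome, because its spread comes from the Tcf1 pair. Of 17 named genes not past the test, 4 came past it under median centring, 4 of 16 with the signal filter, 3 with the trend, 1 after renewed quantile normalization and 1 with the mean of probe sets. Genes at least 2-fold apart numbered 759 (46.9% higher), and 749 to 848 without each replicate in turn, with 58.1% higher for replicate 2 alone and 36.1% for replicate 1 alone. No paired analysis was possible because the control group has a single array without a replicate number, and leaving out a Tcf1 replicate leaves no residual degree of freedom for a test.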

Other observations

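Several gene families beyond the lists were looked at after their values were seen, and all measured members are counted. Of 19 Ms4a genes, membrane proteins of myeloid and lymphoid cells, 6 were higher in Tcf1 cells and 13 did not pass (median 0.16). Ms4a6d read 9.88 and 10.00 in the Tcf1 replicates, 5.95 in the control array and 6.87 in the LMPP array, a difference of 3.99 (SE 0.16, adjusted p = 0.000167, limma). Ms4a4c (3.83), Ms4a6c (3.69), Ms4a4a (2.22) and Ms4a7 (1.35) are its neighbours and were higher too, while Ms4a6b (-0.13) and Ms4a4d (0.11) in the same cluster did not pass. Of 10 Hoxa genes, the 6 from Hoxa3 to Hoxa10 other than Hoxa4 were higher. Hoxa6 read 8.87 and 9.05 in the Tcf1 replicates, 6.75 in the control array and 8.43 in the LMPP array, a difference of 2.21 (SE 0.17, adjusted p = 0.00103, limma). Hoxa4 (0.52), Hoxa2 (0.57), Hoxa11 (0.06) and Hoxa13 (-0.08) did not pass. Of 10 Toll-like receptor genes, 6 were higher and Tlr12 (-0.90) lower (median 1.12). Tlr8 differed by 2.15, Tlr13 by 1.71, Tlr4 by 1.66, Tlr9 by 1.55, Tlr7 by 1.39 and Tlr2 by 0.85.

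Of 11 Clec4 lectin genes 4 were higher, with Clec4a1 (3.19) and Clec4a3 (3.06) having the largest differences, and the neighbouring complement receptor gene C3ar1 was higher by 3.34. Of 34 chemokine ligand genes 5 were higher, namely Ccl22, Ccl9 (2.78), Ccl5, Ccl6 (1.12) and Xcl1. Ccl9 read 9.95 and 10.00 in the Tcf1 replicates, 7.19 in the control array and 9.60 in the LMPP array, with the control array alone low. Of 4 Fc gamma receptor genes, Fcgr2b (2.97) and Fcgr3 (1.56) were higher. Of 26 integrin genes 4 were lower and 2 higher: Itga9 differed by -2.20, and Itgb5 by 2.74. Guanylate binding protein genes, which interferons induce, were in part lower. Of 8 measured, 4 were lower, Gbp9 (-1.58), Gbp4 (-1.36), Gbp11 (-1.22) and Gbp8 (-1.01), and 0 were higher; Gbp4 read 10.44 and 10.77 in the Tcf1 replicates, 11.96 in the control array and 8.64 in the LMPP array. Relatives in this family share sequence, so their signals may be shared.

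Of 9 T cell receptor gene segments with a single-gene probe set, 2 were lower and 7 did not pass. Trdv2-2, a delta segment, read 6.72 and 7.17 in the Tcf1 replicates, 9.16 in the control array and 5.17 in the LMPP array, a difference of -2.22 (SE 0.22, adjusted p = 0.00289, limma). Trgv1, a gamma segment, read 13.16 and 13.09 in the Tcf1 replicates, 13.08 in the control array and 6.08 in the LMPP array, so that Tcf1 and control cells were both high, with a difference of 0.04 that did not pass. Signals of such segments can come from relatives in the family.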
